A study of Mus musculus with 48 samples.

Results

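The Cyp4 family of fatty acid hydroxylases was followed in mouse kidney through 4 member genes: Cyp4b1, Cyp4a10, Cyp4a12a and Cyp4a14. Every probe set annotated to a member on either of the Affymetrix 430A and 430B chips was taken, whatever its signal. Cyp4b1, Cyp4a12a and Cyp4a14 had 1 probe set each, and Cyp4a10 had only a probe set that it shares with its neighbour Cyp4a31 (1424853_s_at), so the signal of Cyp4a10 cannot be separated from that of Cyp4a31. These 4 probe sets, all on the 430A chip, stand among 45037 on the chips, and the 4 members among 18193 named genes. All 4 were among the 27926 probe sets that passed the filter on low signal, which asked for 3 of a chip's 24 arrays with a signal over their own median; Cyp4a12a did so only through the male pools, where it is high.

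The study crossed 3 factors at 2 levels each. Mice carrying Hyp, which disrupts Phex on the X chromosome and leads to renal phosphate wasting, were set against their normal littermates, a low phosphate diet given for 3 days against a control diet, and males against females. All mice were 10 weeks old at the start of the diet and drank deionized water. Hyp males (Hyp/Y) have no normal copy of the gene, Hyp females were heterozygous (Hyp/+), and the source name of 1 sample gives the strain as C57BL/6J. Whole-kidney RNA of 72 mice made 24 pools of 3 mice, 3 pools in each of 8 groups, and each pool was hybridised to both chips. The groups were Hyp males on low phosphate, normal males on low phosphate, Hyp males on control diet, normal males on control diet, and the same 4 groups of females. Pools even out differences between animals, so the p-values refer to pools, and in whole kidney a smaller number of expressing cells and less RNA per cell cannot be told apart.

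Cytochrome P450 enzymes of the Cyp4 family put a hydroxyl group on or near the far, omega, end of a fatty acid, the first step of omega oxidation. In the kidney, where the proximal tubule is rich in them, the Cyp4a enzymes act on lauric acid and on arachidonic acid, from which they make an eicosanoid that constricts vessels and acts on sodium transport. Several are known in mice to respond to androgens or to PPAR alpha, the nuclear receptor for fatty acids, and Cyp4b1, which hydroxylates shorter fatty acids and activates some plant toxins, is known in mouse kidney as androgen dependent.

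Precision is set by the number of arrays, which carry no count of reads. The deposited signals are linear and already scaled; array medians ranged from 164.65 to 211.2 on the 430A chip and from 50.9 to 68.3 on the 430B chip. The sex labels were borne out: the Xist probe set 1427262_at read 2.3 to 50.4 in male pools and 1780.2 to 3404.5 in female pools, and that of the Y-linked gene Eif2s3y (1417210_at) 211 to 332.8 in males and 0.8 to 6.9 in females. The 2 probe sets of Phex, the mutated gene, stayed below the filter, with signals up to 32.8 and 49.8, and check nothing about the genotype labels. Of 14 markers of kidney segments, 13 were on the chips and all 13 were above the array median in every pool. Differences below are log2 differences of group means from a limma fit over all 8 groups, given ± standard error, and p-values are adjusted by Benjamini-Hochberg over all 27926 probe sets, with a threshold of 0.05.

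Cyp4b1 (1416194_at) was the 1 member called for all 3 factors. It was higher in Hyp than in normal kidneys, lower on the low phosphate diet than on the control diet, and higher in males than in females; by sex, its genotype difference was called in females and not in males. Its gene lies on chromosome 4. A window of the 250 bases before the start was available for 1 of the 4 members, Cyp4b1. The windows of the members could therefore not be compared. RefSeq gives that of Cyp4b1 on the minus strand of GRCm38.p6 (chr4:115647722-115647971). The capitals mark the matches to the motifs searched on both strands.
Cyp4b1: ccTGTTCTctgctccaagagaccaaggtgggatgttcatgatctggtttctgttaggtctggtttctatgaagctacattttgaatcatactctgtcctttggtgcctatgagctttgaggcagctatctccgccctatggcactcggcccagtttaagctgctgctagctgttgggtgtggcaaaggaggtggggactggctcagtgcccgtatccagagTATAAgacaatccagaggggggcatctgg
The first is TGTTCT, 248 bases before the start, the reverse complement of AGAACA, a core that androgen and glucocorticoid receptors recognise. The second is TATAA, the core of a common promoter box, 29 bases before the start. AGGTCA, a core of nuclear receptors such as PPAR alpha with RXR, and CCAAT had no match in this window. Of 32851 such windows in the table, 16.1% hold AGAACA, 22.8% TATAA, 14% AGGTCA and 33.8% CCAAT on either strand. A match is a description of the letters and not a bound site.

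Males stood high in both genotypes. On the low phosphate diet Cyp4b1 had signals of 27957.9, 25460.5 and 28645.7 in Hyp male pools, against 21658.8, 22483.6 and 21584 in normal male pools. On the control diet it had 29949.6, 28634.4 and 31523.5 in Hyp male pools, against 24388.1, 29101.6 and 34575.6 in normal male pools. The genotypes did not overlap in males on low phosphate, with every Hyp pool above every normal pool, and overlapped in males on control diet. Of all probe sets tested, 12.4% did not overlap in the same comparison on low phosphate, and the difference of Cyp4b1 there, 0.32 ± 0.20, was not called (adjusted p = 0.895, with 0.265% called). The difference in males over both diets was 0.18 ± 0.14 (95% interval -0.12 to 0.48, adjusted p = 0.854), and no member was called for genotype in males, where 0.884% of probe sets were.

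In females on the low phosphate diet, Cyp4b1 had signals of 7757.5, 7236.6 and 7900 in Hyp pools, against 576.9, 440.8 and 993.2 in normal pools. In females on the control diet the signals were 10119.7, 11371.1 and 11613.2 in Hyp pools, against 2034.4, 2439.2 and 3056.2 in normal pools. The lowest Hyp female pool on either diet was thus above the highest normal female pool on either diet, a separation seen in 0.809% of probe sets. Over both diets the 6 Hyp female pools averaged 9333 ± 1944 and the 6 normal female pools 1590 ± 1074 (SD), and Cyp4b1 rose by 2.87 ± 0.14 in Hyp females (7.33-fold, adjusted p = 5.67e-11). It was 1 of 4 member probe sets called for genotype in females, where 0.559% of all probe sets were called in either direction.

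The genotype difference in males minus that in females was -2.69 ± 0.20 (adjusted p = 3.09e-07), so the genotype difference of Cyp4b1 differed between the sexes in the test of that difference itself. Only 14 probe sets, or 0.0501%, were called for this interaction, and Cyp4b1 was the 1 member among them. Over both sexes Cyp4b1 rose by 1.53 ± 0.10 (2.88-fold, adjusted p = 7.54e-09). It was the 1 member called for genotype, against 0.852% of probe sets called higher and 0.773% called lower.

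**Figure D1:**
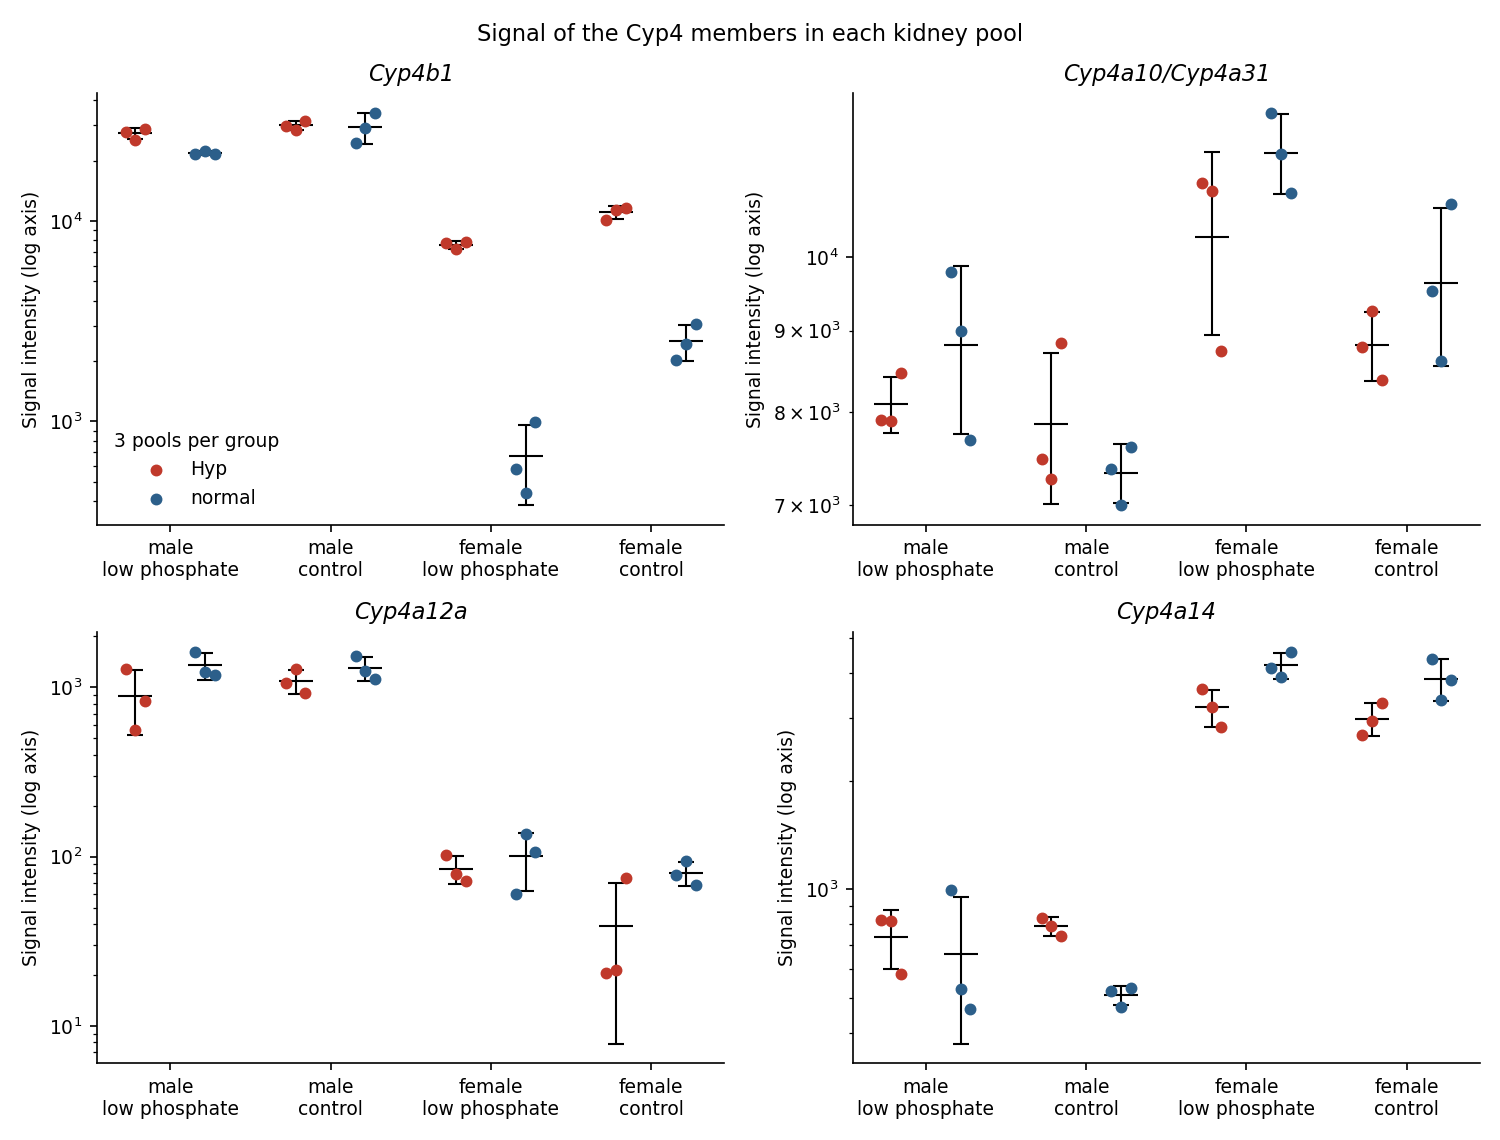
Signal intensity (log axis) of the 4 member probe sets in every pool, Hyp in red and normal in blue, with points for the 3 pools of a group, the mean as a horizontal line and the SD as a bar. Cyp4b1 is lowest in normal females on low phosphate (440.8 to 993.2), Cyp4a12a is low in all females (20.5 to 135.5), and Cyp4a14 is lower in males (463.5 to 995.3) than in females (2684 to 4577).

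The diet changed Cyp4b1 in the other direction. Over both genotypes and sexes it fell by 0.76 ± 0.10 on the log2 scale on low phosphate (adjusted p = 0.000283), where 0.34% of probe sets were called higher and 0.326% lower. Within normal females every low phosphate pool (440.8 to 993.2) lay below every control pool (2034.4 to 3056.2), a difference of -1.97 ± 0.20 (adjusted p = 4.72e-05, with 0.0716% of probe sets called and 12.4% not overlapping). Hyp female pools also did not overlap, at 7236.6 to 7900 on low phosphate and 10119.7 to 11613.2 on control diet, but the difference of -0.53 ± 0.20 was not called (adjusted p = 0.562, with 0.0645% called and 10.7% not overlapping).

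Within the genotypes, the diet difference of Cyp4b1 was -0.33 ± 0.14 in Hyp kidneys (adjusted p = 0.723, with 0.14% of probe sets called). In normal kidneys it fell by 1.19 ± 0.14 on low phosphate (adjusted p = 0.000154, with 0.39% called). The difference between these, 0.86 ± 0.20, was not called (adjusted p = 0.319, with 4 probe sets or 0.0143% called, 1552 at an unadjusted p under 0.05), so a diet effect that differs between Hyp and normal kidneys was not shown. Without pool 3 of normal females on low phosphate, the highest of its group at 993.2, this interaction was 1.02 and passed (adjusted p = 0.0108).

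Within the sexes, Cyp4b1 had a diet difference of -0.27 ± 0.14 in males (adjusted p = 0.726, with 0.283% of probe sets called) and fell by 1.25 ± 0.14 on low phosphate in females (adjusted p = 0.000118, with 0.201% called). The difference of these, 0.98 ± 0.20, was not called either (adjusted p = 0.282). In limma no probe set, 0%, was called for diet by sex, and 1450 had an unadjusted p under 0.05; without the same normal female pool the value was 1.14 and passed (adjusted p = 0.00863). Read the other way, the genotype difference of Cyp4b1 was 1.96 ± 0.14 on low phosphate (adjusted p = 4.17e-08, with 0.662% called) and 1.10 ± 0.14 on control diet (adjusted p = 0.000243, with 0.512% called). The interaction of all 3 factors was -1.17 ± 0.41 and was not called (adjusted p = 0.999), nor was any other probe set (0%, with 1101 at an unadjusted p under 0.05).

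**Figure D2:**
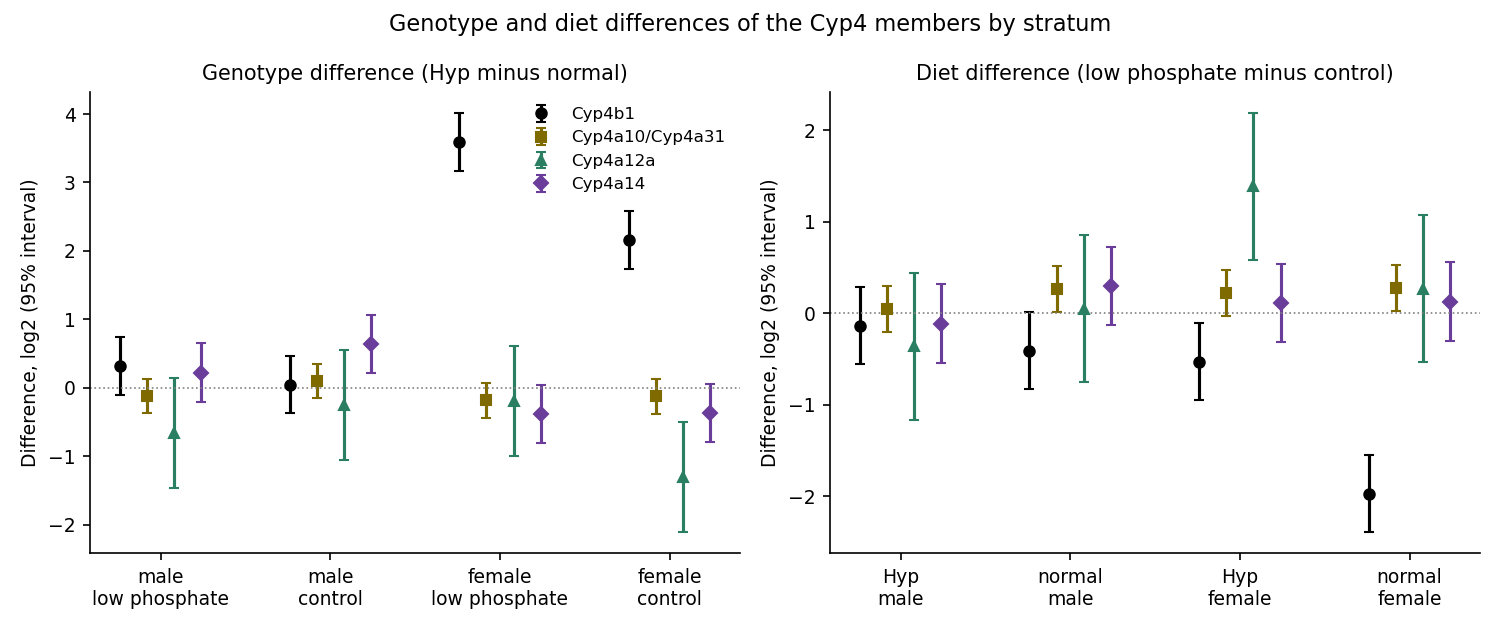
Log2 differences with 95% intervals for the 4 member probe sets, Hyp minus normal in each sex and diet (left) and low phosphate minus control in each genotype and sex (right). For genotype Cyp4b1 stands at 0.32 and 0.05 in males on low phosphate and on control diet, against 3.59 and 2.15 in females, and at -1.97 for diet in normal females.

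The sex difference of Cyp4b1 was also unequal between genotypes, which is the same interaction seen from the other side. Male pools read 21584 to 34575.6 (median 28296.2) and female pools 440.8 to 11613.2 (median 5146.4), with no overlap, as in 1.73% of probe sets, and Cyp4b1 was higher in males by 2.99 ± 0.10 (7.94-fold, adjusted p = 5.35e-15). The male excess was 1.64 ± 0.14 in Hyp kidneys (3.12-fold, adjusted p = 7.12e-08, with 6.18% of probe sets called) and 4.33 ± 0.14 in normal kidneys (20.2-fold, adjusted p = 9.82e-15, with 8.02% called). In order of group means, Hyp males on control diet (30036 ± 1446, SD) and normal males on control diet (29355 ± 5098) came first. Hyp males on low phosphate (27355 ± 1676) and normal males on low phosphate (21909 ± 499) followed, then Hyp females on control diet (11035 ± 802) and on low phosphate (7631 ± 349), and last normal females on control diet (2510 ± 515) and on low phosphate (670 ± 288). The pools of the first 3 groups overlapped in this order, and from the third on the pools of neighbouring groups did not. The order was set by these same signals. Between genotypes in males on low phosphate, 12.4% of all probe sets did not overlap. By diet the share was 10.7% in Hyp females and 12.4% in normal females.

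The Cyp4b1 signals of male pools were close to the top of the array. They reached 52.2% to 89.0% of the highest signal on their array and ranked between 5th and 26th of all probe sets there, whereas female pools reached 1.14% to 33.4% and ranked between 143 and 6671. The highest signal on any 430A array was between 30302.6 and 47504.4. Among the 50 probe sets with the highest mean signal in males, from 16219.4 upward, Cyp4b1 was the 9th, and their genotype differences in males ran from -0.50 to 0.18, with a median absolute size of 0.06. Cyp4b1 had the highest of them. Genotype calls in males were made for 2 of these 50, Cndp2 (-0.50 ± 0.09) and Acsm2 (-0.36 ± 0.08), named after their values were seen; their male means, 17695 and 16219.4, lie below the 27164 of Cyp4b1. A limit of the scanner or of hybridisation in males was not tested.

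**Figure D3:**
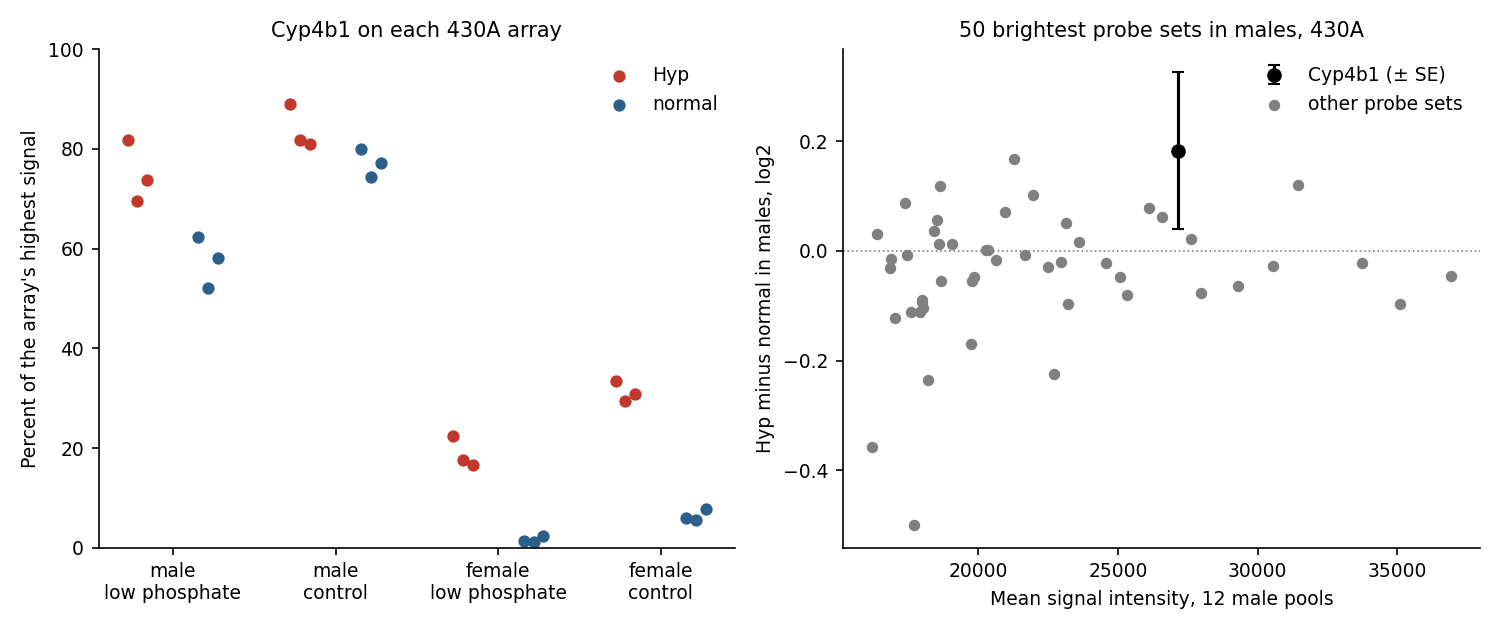
Left, Cyp4b1 as a percent of the highest signal of its own 430A array, for each pool by sex, diet and genotype; right, Hyp minus normal in males (log2) against the mean signal over the 12 male pools for the 50 brightest probe sets in males. Male pools lie at 52.2% to 89.0%, female pools at 1.14% to 33.4%, and Cyp4b1 (black, ± SE) has the highest difference of the 50, 0.18.

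Cyp4a10 is known in mice as a lauric acid hydroxylase induced through PPAR alpha. The probe set shared by Cyp4a10 and Cyp4a31 was bright in every group, at 17.0% to 32.3% of the array's highest signal. In males on low phosphate it read 7910.4, 7897.5 and 8468.9 in Hyp pools, against 9788.3, 8991 and 7680.2 in normal pools. Males on control diet had 7477.5, 7261.3 and 8839 in Hyp pools, against 7375.8, 6996.9 and 7612.1 in normal pools. The genotypes overlapped on both diets.

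In females on low phosphate it read 11133.5, 11010.6 and 8738.8 in Hyp pools, against 12314.5, 11608 and 10969.6 in normal pools. In females on control diet it read 8783, 9262.3 and 8385.7 in Hyp pools, against 9521.7, 8611.4 and 10798.7 in normal pools. These overlapped as well. The genotype difference over both sexes was -0.08 ± 0.06 (95% interval -0.21 to 0.04, adjusted p = 0.732), and the diet difference was 0.20 ± 0.06 (adjusted p = 0.2), neither called.

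This probe set was lower in males, by 0.33 ± 0.06 on the log2 scale (1.25-fold higher in females, adjusted p = 0.000682). Male pools read 6996.9 to 9788.3 and female pools 8385.7 to 12314.5, so the sexes overlapped. The sex difference was -0.25 ± 0.09 in Hyp kidneys (adjusted p = 0.0904) and -0.40 ± 0.09 in normal kidneys (adjusted p = 0.00445), and the genotype by sex difference of 0.14 ± 0.12 was not called (adjusted p = 0.897). The call in normal kidneys was lost when arrays were scaled to equal medians (-0.27, adjusted p = 0.101). A call in Hyp kidneys was gained without pool 3 of Hyp females on low phosphate (-0.31, adjusted p = 0.0345). It was also gained with an intensity trend and robust estimation of the variance (-0.25, adjusted p = 0.0357).

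The 2 probe sets that name Cyp4a31 alone did not share this direction. On 1440134_at the male minus female difference was 0.25 ± 0.09 (adjusted p = 0.0837) and on 1424943_at 0.34 ± 0.15 (adjusted p = 0.138), neither called. Their genotype differences were -0.17 ± 0.09 and -0.43 ± 0.15 and were not called either. Group means of 1440134_at lay between 2554 ± 723 in Hyp females on control diet and 4000.2 ± 347.2 in normal males on low phosphate (SD, n = 3).

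Cyp4a12a, known as the main arachidonic acid omega hydroxylase of the male mouse kidney and as androgen dependent, was bright in males and dim in females. Hyp male pools read 1291.2, 559.7 and 831.2 on low phosphate and 1066.4, 1286.4 and 928.4 on control diet, and normal male pools 1625.8, 1228.1 and 1190 on low phosphate and 1529.8, 1255.7 and 1118.2 on control diet. Hyp female pools read 102.3, 79.5 and 71.8 on low phosphate and 20.5, 21.4 and 74.5 on control diet, and normal female pools 60.2, 135.5 and 106.3 on low phosphate and 78.1, 94 and 67.7 on control diet. All 12 male pools were above the array median and all 12 female pools below it. Cyp4a12a was higher in males by 4.06 ± 0.19 (16.7-fold as measured, adjusted p = 1.6e-12), and since the female signals are near background this fold depends on what an array reads there.

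The male excess was 4.21 ± 0.27 in Hyp kidneys and 3.92 ± 0.27 in normal kidneys, beside 1.64 and 4.33 for Cyp4b1, and for Cyp4a12a the difference between the genotypes, 0.29 ± 0.38, was not called (95% interval -0.51 to 1.10, adjusted p = 0.937). Among males the 6 Hyp pools averaged 994 ± 282 and the 6 normal pools 1325 ± 204 (SD), with overlap. The genotype difference over both sexes was -0.60 ± 0.19 (95% interval -1.0 to -0.20) and was not called (adjusted p = 0.154). Without pool 3 of Hyp females on control diet, whose 74.5 stood apart from 20.5 and 21.4, it was -0.76 and passed (adjusted p = 0.00649); without it the differences in females (-1.05, adjusted p = 0.0226) and on control diet (-1.09, adjusted p = 0.0161) and the diet difference in females (1.13, adjusted p = 0.0267) passed too. Those female signals are all below the array median. The diet difference was 0.34 ± 0.19 (adjusted p = 0.645).

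Cyp4a14 is known in mice for its strong induction through PPAR alpha, and male mice that lack it have raised androgen levels and blood pressure. It ran opposite to Cyp4a12a by sex. Male pools read 463.5 to 995.3 (median 660.8), against female pools at 2684 to 4577 (median 3471.8), with no overlap, as in 1.73% of probe sets. As male minus female the difference was -2.42 ± 0.10 (5.37-fold higher in females, adjusted p = 2.23e-13). The difference was -2.02 ± 0.14 in Hyp kidneys (adjusted p = 3.07e-09) and -2.83 ± 0.14 in normal kidneys (adjusted p = 1.14e-11).

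In males, Cyp4a14 read 819.8, 814.2 and 580.4 in Hyp pools on low phosphate, against 995.3, 529.1 and 463.5 in normal pools, and 833.8, 791.1 and 741.2 in Hyp pools on control diet, against 520.2, 472.3 and 530.2 in normal pools. In females it read 3594.3, 3204.6 and 2833.9 in Hyp pools on low phosphate, against 4110.6, 3878 and 4577 in normal pools, and 2684, 2932.3 and 3303 in Hyp pools on control diet, against 4376.5, 3349.3 and 3811.5 in normal pools. Hyp pools were all above normal pools in males on control diet and all below them in females on either diet, and the genotypes overlapped in males on low phosphate through the normal pool at 995.3. Of all probe sets, 11.3% did not overlap between genotypes in males on control diet, 14% in females on low phosphate and 11.1% in females on control diet, and none of these 3 differences of Cyp4a14 was called (adjusted p = 0.399, 0.703 and 0.711).

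These genotype differences of Cyp4a14 were 0.43 ± 0.14 in males (95% interval 0.13 to 0.73, adjusted p = 0.282) and -0.38 ± 0.14 in females (95% interval -0.68 to -0.08, adjusted p = 0.407). Neither was called, and the difference between the sexes, 0.81 ± 0.20, did not pass either (adjusted p = 0.373). Without the normal male pool at 995.3, pool 1 on low phosphate, that interaction was 0.97 (adjusted p = 0.00609) and the difference in males 0.60 (adjusted p = 0.00737), both past the threshold. Over both sexes the genotype difference was 0.03 ± 0.10 (adjusted p = 0.969) and the diet difference 0.11 ± 0.10 (adjusted p = 0.833).

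All 4 member probe sets were called for sex, Cyp4b1 and Cyp4a12a higher in males and Cyp4a14 and the Cyp4a10/Cyp4a31 probe set higher in females, where 5.96% of all probe sets were called higher in males and 8.67% lower. Cyp4a12a passed the filter through males alone, so its place in that count carries no weight. The other 15 Cyp4 probe sets, of 11 further genes, were mostly dim, and 7 of the 15 passed the filter. Only the Cyp4a31 pair and Cyp4f13 (1418767_at, 205.8 to 493.5 in signal) were above the array median in all 24 pools. Of these 7 none was called for genotype or diet and 1 for sex, the probe set shared by Cyp4f37 and Cyp4f16 (1430172_a_at), which was lower in males by a log2 difference of -0.54 ± 0.14 (adjusted p = 0.0119). Its genotype difference was 0.52 ± 0.14 (adjusted p = 0.0716). Cyp4f13, Cyp4f39 and Cyp4v3 had genotype differences of -0.02 ± 0.12, 0.15 ± 0.25 and -0.02 ± 0.10, none called.

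**Figure D4:**
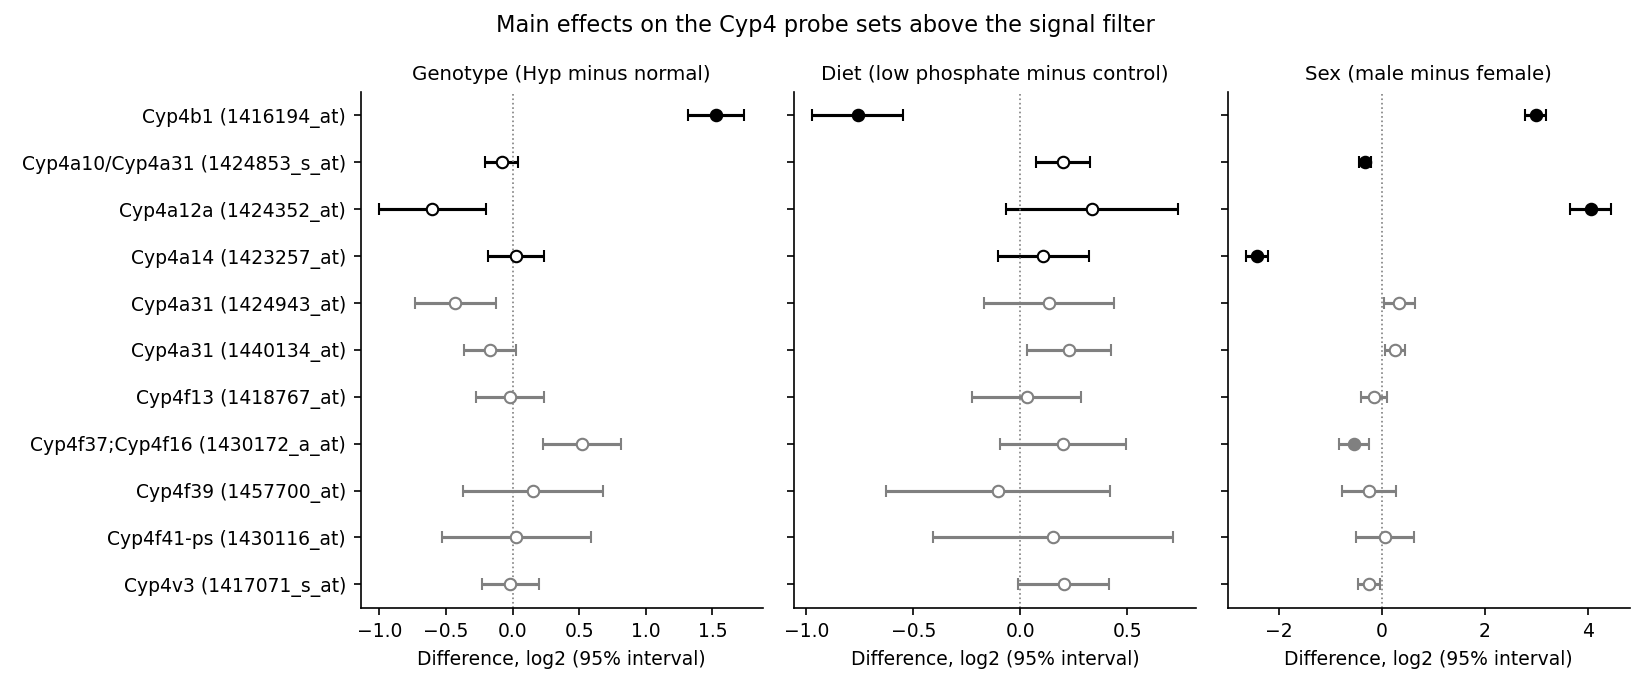
Log2 differences with 95% intervals of the 11 Cyp4 probe sets that passed the filter, for genotype, diet and sex, with the 4 member probe sets in black, the others in grey, and filled points where the adjusted p is under 0.05. Each panel has its own scale; Cyp4b1 is filled in all 3, at 1.53, -0.76 and 2.99, and the other 3 members are filled for sex only.

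By the gene table of the same assembly, used here for order only, the 4 members lie in 1 stretch of chromosome 4 in the order Cyp4a12a, Cyp4a14, Cyp4a10 and Cyp4b1. Between and including the outermost members it lists 15 genes. With 3 more on each side there are 21, of which 13 are Cyp4 genes or pseudogenes, 7 have a probe set and 6 one that passed the filter. The members of this stretch thus differ in direction by sex, with Cyp4a12a and Cyp4b1 at its ends higher in males and Cyp4a14 and the Cyp4a10/Cyp4a31 probe set between them higher in females. Beyond Cyp4b1, Efcab14 had 3 probe sets with genotype differences between -0.12 and 0.05 and another, dim one (1446425_at, 6.6 to 84 in signal) at 0.79 ± 0.35, none called.

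The genes around the Cyp4 step were read from gene lists, each gene by its brightest kept probe set. Of all probe sets, 5.96% were called higher and 8.67% lower in males, and 0.852% and 0.773% in Hyp. On low phosphate these shares were 0.34% and 0.326%. Of the electron donors of P450 enzymes, Cyb5a (0.73 ± 0.05), Cyb5r3 (0.76 ± 0.06) and Cyb5b (0.40 ± 0.05), which pass electrons by way of cytochrome b5, were all higher in males, 3 of 3 measured. None of the 3 was called for genotype over both sexes, but Cyb5r3 fell in Hyp females by 0.38 (adjusted p = 0.0344), with a genotype by sex difference of 0.38 that was not called (adjusted p = 0.579), and it rose on low phosphate (0.26 ± 0.06, adjusted p = 0.0359). Of the enzymes that carry the hydroxylated fatty acid onward, 6 of 8 were higher in males, among them the alcohol dehydrogenase Adh1 (1.70 ± 0.06) and the fatty aldehyde dehydrogenase Aldh3a2 (0.71 ± 0.05), with a list median of 0.35 against -0.05 over all probe sets. Acsm3, another of the 6, passed the filter through males alone, so its place in this count carries no weight. For genotype 1 of these 8 was called, the retinaldehyde dehydrogenase Aldh1a1 (0.91 ± 0.13, adjusted p = 0.000315), and for diet 1, Adh1 (-0.31 ± 0.06, adjusted p = 0.00681).

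Epoxygenases and epoxide hydrolases compete for or act after the same arachidonic acid pool. Of 7 measured, 3 were higher in males, Cyp2j13 (6.64 ± 0.27), the soluble epoxide hydrolase Ephx2 (1.21 ± 0.06) and Cyp2j5 (0.57 ± 0.05), and 1 was lower, Ephx1 (-0.51 ± 0.08). Of all probe sets, 5.96% were called higher and 8.67% lower in males. Cyp2j13, 99.4-fold higher in males at a mean signal of 2298 over all pools, is thus dim in females. It is given no weight in this count. Ephx2 also was lower in Hyp kidneys (-0.30 ± 0.06, adjusted p = 0.00679), and none of the 7 was called for diet. PPAR alpha and its targets, which include the fatty acid oxidation genes, were measured for 27 of 32. Of the 27, 1 was called higher in Hyp, the fatty acid binding protein Fabp1 (1.81 ± 0.32, adjusted p = 0.00257), against 0.852% of all probe sets. The mean signal of Fabp1, 169.7, lay within the range of the array medians. The 1 called lower, against 0.773% of all probe sets, was Fabp3 (-0.50 ± 0.08, adjusted p = 0.00118), which was also the 1 called in females (-0.65, adjusted p = 0.00665). On low phosphate 2 of the 27 rose, the acyl-CoA thioesterase Acot1 (0.53 ± 0.09) and the lipase inhibitor Angptl4 (0.78 ± 0.16), and none fell. For sex 5 were higher and 7 lower in males, against 5.96% and 8.67% of all probe sets. The list median was -0.04, against -0.05 over all probe sets.

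Genes listed as androgen responsive in kidney were higher in males in 8 of 10 and lower in 1, with a median of 2.24, against -0.05 over all probe sets. Of all probe sets, 5.96% were called higher in males and 8.67% lower. Cyp7b1, Slco1a1 and Acsm3 were above the array median only in the 12 male pools, so they passed the filter through males alone. Their place in this count and median carries no weight. Cyp2j13, 99.4-fold higher in males at a mean signal of 2298 over all pools, is given no weight there either. Acsm3 (7.59 ± 0.26), Cyp2j13, Cyp7b1 (5.54 ± 0.11) and Cyp2e1 (3.22 ± 0.06) were among the 8. In females none of these 10 was called for genotype, where 0.559% of all probe sets were, and their median difference there was -0.03, against -0.03 over all probe sets. Cyp7b1, Slco1a1 and Acsm3 were not above the array median in females, which limits what a difference there can show. Cyp2j13, given the size of its sex difference, may share this limit. The part of androgens in the members' differences was not tested. In males 2 were called higher in Hyp, Cyp7b1 (0.81) and Slc22a19 (0.63), and 1 lower, Cyp2e1 (-0.42), while none of the 10 was called for genotype by sex.

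Markers of the proximal straight tubule, where several sex-dependent transporters lie, were read by sex and by genotype. Their summed signal was 34888.5 to 53319.8 in male pools (median 42826.6) and 15063.5 to 18952.5 in female pools (median 16547). Of the 8, 5 were called higher and 2 lower in males, against 5.96% and 8.67% of all probe sets. Cyp7b1, Slc22a19, Slco1a1 and Acsm3 stand on the androgen list too, and all of these but Slc22a19 passed the filter through males alone. The places of Cyp7b1, Slco1a1 and Acsm3 in the count carry no weight. Apart from them, Slc7a13 and Atp11a were called higher and Slc22a19 and Slc5a1 lower in males. The part of this segment in the sex differences of the members was not tested. For genotype 3 of the 8 rose, Cyp7b1 (0.67 ± 0.11), Slc22a19 (0.39 ± 0.06) and Slc5a1 (0.35 ± 0.06), against 0.852% of all probe sets called higher. Within males 4 were called higher in Hyp, these 3 (0.81, 0.63 and 0.56) and Slc22a7 (0.75), and within females none of the 8. None of the 8 was called for genotype by sex, so a difference between the sexes was not shown for these markers. Of the 13 kidney segment markers, 2 were called higher in Hyp, Slc12a3 (0.50) and Slc4a1 (0.42). Another 3 were called lower, the proximal tubule transporters Slc5a2 (-0.64) and Slc34a1 (-0.30), and Calb1 (-0.33). For sex 1 of the 13 was called higher in males, Slc34a1 (0.24), and 5 lower, among them Cubn (-0.52) and Lrp2 (-0.28). On low phosphate 1 was called lower, Calb1 (-0.77), and 1 higher, Slc5a2 (0.30). Liver markers, a tissue rich in Cyp4a enzymes, summed to 2343.6 to 4085.8 in Hyp and 1866.5 to 3166.9 in normal pools, with 7 of the 12 on the chips never above the array median, Ahsg, Apoa1, Cps1 and Tdo2 among them. Of the 5 measured, Apob was called higher in Hyp (0.48 ± 0.12), and Alb was lower on low phosphate (-0.78, adjusted p = 0.0151). For sex, Apoh (2.23) and Serpina1c (0.44) were called higher and Alb (-0.52) lower in males. Fat markers summed to 1448.1 to 2393.1 in male and 2019.4 to 2997.4 in female pools, with all 3 measured called lower in males and Cidec and Lep never above the array median. Leukocyte markers summed to 2626.8 to 3409.9 in male and 3295.3 to 4156.9 in female pools, with 2 of 4 measured called lower in males. Of the adrenal and urothelial markers, 3 measured in each list, none was called for genotype, diet or sex. The part of these tissues in the members' differences was not tested.

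By the lower of its correlations over the 12 male and the 12 female pools, among 11786 named probe sets of the chip, Cyp4b1 was most like Ostc (r = 0.81 in males and 0.91 in females), Xbp1 (0.80 and 0.87) and Capn6 (0.78 and 0.84). Xbp1, a transcription factor of the unfolded protein response, and Capn6, a calpain without protease activity, were higher in Hyp (0.32 ± 0.06 and 0.34 ± 0.08, both called), and Ostc, a subunit of the oligosaccharyl transferase, had 0.18 ± 0.05 (adjusted p = 0.0629). The correlations run over pools of both genotypes, so genes picked this way tend to share the genotype difference of Cyp4b1. Their genotype differences are therefore no separate result. Cyp4a14 was most like Slc9a8 (0.74 and 0.91), Ctnnb1 (0.67 and 0.83) and Brap (0.64 and 0.87). Cyp4a12a was most like Akr1c18 (0.70 and 0.74), Trmt2a (0.68 and 0.66) and Copg1 (0.66 and 0.74), and the Cyp4a10/Cyp4a31 probe set like Nrf1 (0.70 and 0.69), Ddr1 (0.68 and 0.77) and Slc25a30 (0.72 and 0.67). The female correlations of Cyp4a12a rest on signals of 20.5 to 135.5, all below the array median, which limits what they can show. These are descriptions over pools that share arrays, groups and scaling, picked as the highest of many.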

How the data were processed

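Total kidney RNA, extracted with TRIzol, was labelled with biotin and read on 48 arrays, per the labels' protocols. The deposited values are linear signal intensity for each probe set. The submitters' processing notes name GCOS 1.2; which algorithm, scaling target or mask it ran with is not given in the sources used. The 2% trimmed mean of the 100 probe sets on both chips was 1199.99 to 1200.01 on all arrays, so the intensities were already scaled. Symbols came from the platform's probe annotation, updated through the RefSeq gene table: 34945 probe sets had 1 symbol, 932 several and 9160 none.

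After a floor of 1, log2 signals were fitted by limma 3.58.1 (lmFit, eBayes; R 4.3.3) as 8 group means, without a block, each chip apart; the method was tested on simulated data. Control probe sets, 64 per chip, were left out. No arrays were identical.

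The members were all named whatever their values. From each list up to 4 genes per main effect were named, those with the smallest adjusted p past 0.05, and all other Cyp4 genes; likeness took the 3 highest. The members and lists were chosen with earlier results of these data known. Alternatives changed the filter, features, floor (a pseudocount of 50), scaling, variance trend (with robust estimation), adjustment, block and each pool.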

Additional observations from a re-analysis of the deposited data

Results flagged for a closer look

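The genotype by sex interaction of Cyp4b1 stands out because its genotype effect differed between the sexes in the test of the difference itself: the Hyp minus normal difference in males minus that in females was -2.69 on the log2 scale (limma, adjusted p = 3.09e-07). The difference was 0.18 ± 0.14 in males and 2.87 ± 0.14 in females. Hyp males carry the mutation on their only X chromosome and Hyp females on 1 of 2, so sex and the number of mutant copies cannot be told apart here. Male signals lay at 52.2% to 89.0% of the highest signal of their array, and the part of an upper limit in the small male difference was not tested. In the 6 Hyp female pools the signals, 7236.6 to 11613.2, lay between those of the normal females (440.8 to 3056.2) and those of the males (21584 to 34575.6).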

How the results depend on the processing

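Over 68 member values and 32 alternative settings, 2165 of 2176 pairs kept their side of the threshold, 10 gained a call, 1 lost it and none that was called changed sign. Of the 2165, 2134 also kept their sign and 31, called in neither fit, did not. The 3 main effects, the genotype effect in females and the genotype by sex interaction of Cyp4b1 passed under every setting run, with ranges of 1.46 to 1.61 for genotype, -0.84 to -0.70 for diet, 2.92 to 3.09 for sex, 2.74 to 3.04 for genotype in females and -2.85 to -2.56 for the interaction. Leaving out 1 pool at a time gave -0.76 to -0.52 for the genotype effect of Cyp4a12a, 0.73 to 1.02 and 0.85 to 1.14 for genotype by diet and diet by sex of Cyp4b1, and 0.70 to 0.97 for genotype by sex of Cyp4a14. Counts of all called probe sets ranged over these omissions from 141 to 196 for diet, 4 to 7 for genotype by diet, 13 to 22 for genotype by sex and 0 to 1 for diet by sex. The 186 calls for diet became 118 with no filter and 281 with an intensity trend and robust estimation of the variance, which were set together. That setting also gave 11 calls for genotype by diet (4 without it), 31 for genotype by sex (14 without it) and 1 for diet by sex (0 without it). Diet by sex also had 1 call with no filter, with the pseudocount and with the replicate block. The causes were not tested. Residuals of same-numbered pools correlated at -0.16 to 0.26 (median 0.07) on the 430A chip, over 0.1 in 32 of 84 pairs, and in 0 of 84 on the 430B chip. The main fit did not pair the pools by number, and a part of the numbers in the 430A signals was not tested further. The block changed no call of a member. Signals below the array median, as for Cyp4a12a in females, limit what a difference can show.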
